A study of Mus musculus with 16 samples.

Results

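The genes described here are the 10 genes of the leukaemia inhibitory factor (LIF), JAK-STAT3 and SOCS axis that were listed by symbol for this work: Lif, Lifr, Il6st, Jak1, Stat3, Socs2, Socs3, Pim1, Pim3 and Csf3r. Each symbol was matched to 1 Ensembl identifier, so that 10 of the 52636 identifiers in the count table were taken, and all 10 passed the filter on low counts that kept 12215 genes. Libraries from rRNA-depleted RNA were sequenced for 16 cultures of CRAFR26, a mouse embryonic stem cell line with a c-RAF kinase construct that is switched on by 4-hydroxytamoxifen (4OHT), which in turn switches on ERK. The cultures came from 2 clones, numbered 4 and 8, with 2 cultures per clone in each of 4 groups. Cells were routinely kept in N2B27 medium with 3 μM CHIR99021, which inhibits GSK3, 1 μM PD0325901, which inhibits MEK, and LIF at 1000 U/ml. For the experiment PD0325901 was exchanged for the FGF receptor inhibitor PD173074 at 250 nM for 48 h in all 4 groups. The 0h group received no 4OHT, the 2h and 4h groups received 250 nM 4OHT for 2 h and 4 h, and the rev group received 4OHT for 4 h and then a MEK inhibitor for 2 h more. No vehicle culture and no culture kept for the last 2 h without the MEK inhibitor were analysed here, so the effect of the agent and that of time in culture cannot be told apart. The samples were labelled as separate cultures, and p-values measure the spread between them.

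LIF is a secreted cytokine that binds a receptor made of LIFR and the shared subunit gp130, encoded by Il6st. The bound receptor activates JAK kinases, chiefly JAK1 in embryonic stem cells, which phosphorylate STAT3, and STAT3 then enters the nucleus and maintains naive self-renewal. SOCS proteins are induced by STAT signalling and feed back on it: SOCS3 binds gp130 and JAK and inhibits them. ERK signalling, which the construct switches on, is known for opposing the naive state that LIF maintains.

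Total counts per library ranged from 2172651 to 12680303, with a median of 6502783, and 8 gene models took between 42.0% and 80.4% of each library. The highest share, 80.4%, and the lowest scaling factor, 0.463, belonged to the second clone 8 culture of rev, and the lowest share, 42.0%, and the highest factor, 1.47, to the first clone 4 culture of 4h, so that these 2 libraries stood apart at opposite ends. The 8 models took a mean of 54.1% of counts at 4h and 65.9% in rev. Of 6 ERK feedback genes that served as a check of the induction, all 6 rose after 2 h and after 4 h of induction, and all 6 fell in rev against 4h. The 6 markers of pluripotent cells summed to between 1061 and 1325 CPM (counts scaled to a common library size) in every library. Single markers varied more than this sum, from Pou5f1 at 111 to 167 CPM to Nanog at 180 to 514 CPM. The 5 blood cell markers summed to at most 0.451 CPM, with 2 of the 5 at 0 in all 16 libraries. The 4 fibroblast or feeder markers summed to 0.321 to 1.09 CPM at 0h, 1.27 to 1.81 CPM at 2h, 0.584 to 1.54 CPM at 4h and 1.81 to 3.16 CPM in rev, with 1 of the 4 at 0 throughout. The 3 mesoderm and primitive streak markers summed to 5.56 to 8.96 CPM at 0h, 16.3 to 25.5 CPM at 4h and 6.96 to 10.2 CPM in rev. The 2 neural markers summed to 1.49 to 3.70 CPM at 0h, 2.77 to 3.37 CPM at 2h, 4.21 to 4.67 CPM at 4h and 4.37 to 7.38 CPM in rev, so that 4h and rev did not overlap 0h, and the 4 primitive endoderm markers to 1.63 to 5.41 CPM over all libraries. Their part in the results below was not tested, and in bulk RNA fewer cells of a type and less RNA per cell cannot be told apart.

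At 0h all 10 genes were detected, and their levels per kilobase of exon spanned from Pim1 to Lif. Pim1, a constitutively active serine/threonine kinase transcribed downstream of STAT3, had the highest level, 23.1 ± 1.77 CPM per kb (SD, n = 4), and Pim3, its relative, followed at 9.84 ± 1.14 CPM per kb. Il6st (6.27 CPM per kb), Stat3 (5.53), Jak1 (5.44), Socs3 (5.20), Lifr (4.86) and Csf3r (3.88) came next, and each of these overlapped its neighbour in that order. Socs2 at 2.187 ± 0.334 CPM per kb and Lif at 0.916 ± 0.329 CPM per kb were lowest, and neither overlapped its neighbours. The transcripts of the signalling parts (both receptor chains, the kinase and the transcription factor) thus stood at similar levels per length, while the ligand transcript was the rarest of the 10.

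**Figure D1:**
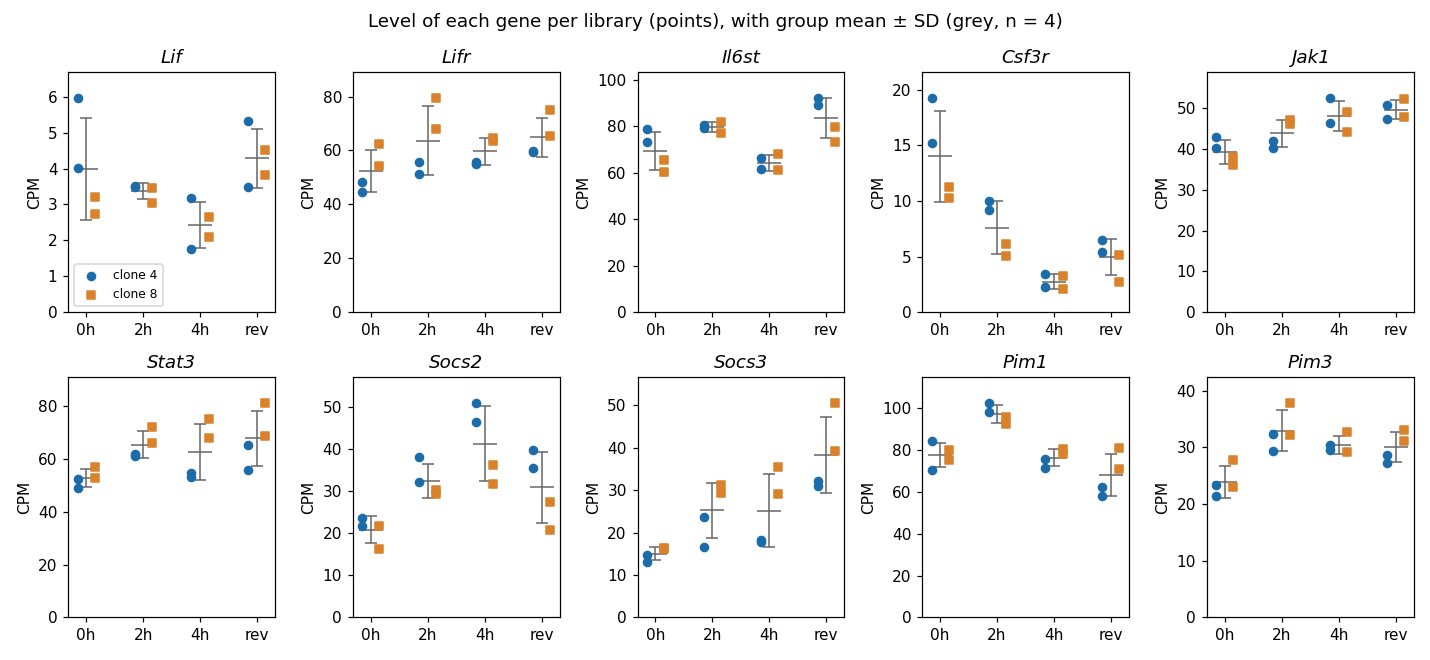
Level in CPM (y axis, starting at 0) of each of the 10 genes in the 0h, 2h, 4h and rev groups (x axis), with 1 point per library (circles clone 4, squares clone 8) and the group mean ± SD in grey (n = 4). Csf3r falls from a mean of 14.0 to 2.74 CPM by 4h, Socs2 peaks at 4h, and Socs3 is highest in rev.

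The 10 genes did not move as one block. After 2 h of induction Socs3, Socs2, Pim3, Pim1, Stat3, Lifr and Il6st were higher than at 0h and Csf3r was lower, so that 7 rose and 1 fell. The background was 11.4% of all 12215 genes called higher and 9.68% called lower in that comparison. After 4 h 6 were higher than at 0h (Socs2, Socs3, Pim3, Jak1, Stat3 and Lifr) and 2 were lower (Csf3r and Lif), against backgrounds of 17.2% and 16.8%. Between 2 h and 4 h Socs2 rose and Csf3r, Pim1 and Il6st fell, where 3.8% of all genes were called higher and 3.52% lower. In the MEK inhibitor group Csf3r, Lif, Socs3 and Il6st were higher than at 4h and Socs2 was lower, 4 against 1, with backgrounds of 7.93% and 8.43%. Against 0h, rev still showed 7 genes higher (Socs3, Socs2, Stat3, Jak1, Pim3, Lifr and Il6st) and Csf3r lower, against backgrounds of 12.4% and 9.86%. Comparisons with 0h share the 0h libraries, and those of 4h with 0h and of rev with 4h share the 4h libraries, so they are given side by side and not as support for each other.

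The median log2 fold change of the 10 genes was 0.30 at 2h against 0h and 0.22 at 4h against 0h, where the medians of all genes were -0.02 in both. The 10 genes had a median of -0.09 for 4h against 2h, of 0.12 for rev against 4h, where all genes had 0.01, and of 0.33 for rev against 0h, where all genes had -0.01. At 2h against 0h the groups did not overlap for Stat3, Socs2, Socs3, Pim1, Pim3 and Csf3r. At 4h against 0h they did not overlap for Jak1, Socs2, Socs3, Pim3 and Csf3r, and in rev against 4h for Lif and Il6st. How often the groups were apart over all 12215 genes was not counted, so these are descriptions of single genes. Calls are edgeR quasi-likelihood tests with a Benjamini-Hochberg adjusted p under 0.05 over all 12215 genes. Without the 4h library that stood apart, Lifr lost its call at 4h against 0h and Socs2 at 4h against 2h, while the member calls in rev against 4h stayed. Without the rev library that stood apart, Pim1 was also called lower in rev against 4h and against 0h, and the other member calls of these comparisons stayed. Over the single left-out libraries, calls over all genes in rev against 4h ranged from 644 to 1026 higher and from 737 to 1119 lower. Of the 50 member results, 33 kept direction and call without the clone covariate and 16 with library size alone. With library size alone as the scaling, the median of all genes shifted to -0.41 in rev against 4h and to -0.32 in rev against 0h, and the calls over all genes in rev against 4h went from 969 higher and 1030 lower to 57 higher and 1671 lower. The corresponding splits moved from 2098 and 2048 to 554 and 327 at 4h against 0h, from 464 and 430 to 88 and 12 for 4h against 2h, and from 1518 and 1204 to 105 and 905 for rev against 0h.

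**Figure D2:**
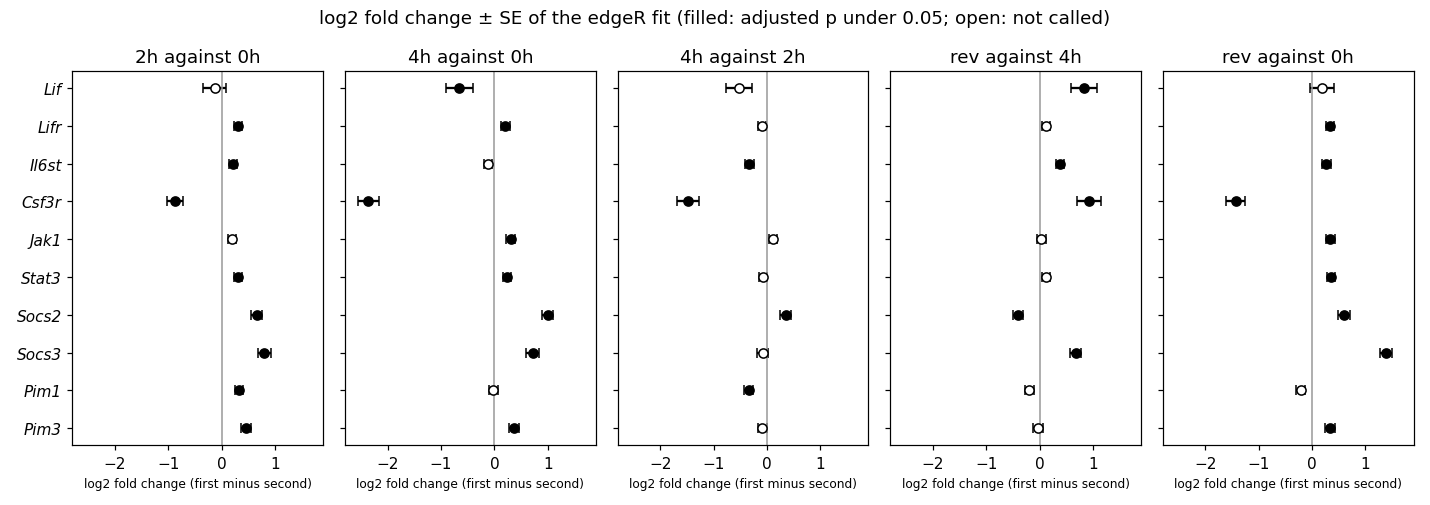
Log2 fold change ± SE (x axis) of the 10 genes (rows) in the 5 comparisons (panels), with filled points where the adjusted p is under 0.05. Csf3r lies at -2.36 in 4h against 0h and at 0.93 in rev against 4h, and Socs3 lies to the right of 0 in both of these panels.

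Lif (ENSMUSG00000034394, chr11:4257557-4272514, plus strand, mm10) encodes the ligand that the medium also supplied as protein. Its transcript was rare, with 8 to 50 counts per library. The clone 4 cultures were at 5.97 and 4.03 CPM at 0h, 3.50 and 3.50 at 2h, 3.19 and 1.75 at 4h, and 5.33 and 3.48 in rev. In clone 8 the levels were 2.73 and 3.21 CPM at 0h, 3.46 and 3.05 at 2h, 2.66 and 2.10 at 4h, and 3.81 and 4.51 in rev. The 4h cultures were the lowest of their clone, and the 0h and 4h ranges overlapped across clones, while all 4 rev cultures lay above all 4 cultures of 4h. Lif was lower at 4h than at 0h by a log2 fold change of -0.65 (SE 0.25, adjusted p = 0.0387), and higher in rev than at 4h by 0.84 (SE 0.24, adjusted p = 0.0157), a 1.79-fold difference. Within clones the edgeR test called the fall in clone 4 (-0.93, adjusted p = 0.0373) and not in clone 8 (-0.31, 0.615). The rise in rev was called in neither clone (0.90, adjusted p = 0.055, and 0.72, 0.348). Lif was not called at 2h (-0.14, adjusted p = 0.711) or in rev against 0h (0.18, adjusted p = 0.605). The fall at 4h lost its call under DESeq2 (-0.66, adjusted p = 0.0661), without the low-count filter (-0.65, 0.0634), without the clone covariate (-0.63, 0.0877), with only the 2 groups compared (-0.68, 0.0529), with the percentage of counts in the 8 models as a covariate (-0.65, 0.076) and with library size alone (-0.51, 0.41). It was also lost without any one of 5 libraries: 0h clone 4 culture 1 (-0.49, adjusted p = 0.151), 0h clone 4 culture 2 (-0.68, 0.0689), 0h clone 8 culture 2 (-0.70, 0.0514), 4h clone 4 culture 2 (-0.44, 0.199) and 4h clone 8 culture 2 (-0.64, 0.0632). The rise in rev was lost without 4h clone 4 culture 2 (0.61, adjusted p = 0.114) or rev clone 4 culture 1 (0.69, 0.132), without the clone covariate (0.82, 0.0625), with the percentage covariate (0.83, 0.0672) and with library size alone (0.41, 0.34).

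The start of Lif is shown because its promoter window was 1 of 2 windows of these genes with a motif match. Windows of 300 bases, from 250 before to 50 after the start in RefSeq on GRCm38.p6 (mm10), were found for 9 of the 10 genes, 11 windows in all, and searched on both strands for a STAT site (TTCNNNGAA), an AP-1 site (TGANTCA), an ETS site (CCGGAAG) and the serum response element core (CArG box). Socs2 had no entry. In the Lif window (chr11:4257318-4257617, plus strand) the capitals mark an AP-1 match, TGACTCA, that begins 228 bases before the start (chr11:4257340-4257346). AP-1 is the dimer of FOS and JUN proteins, which ERK signalling induces. The sequence reads 5′ to 3′ as follows.
Lif: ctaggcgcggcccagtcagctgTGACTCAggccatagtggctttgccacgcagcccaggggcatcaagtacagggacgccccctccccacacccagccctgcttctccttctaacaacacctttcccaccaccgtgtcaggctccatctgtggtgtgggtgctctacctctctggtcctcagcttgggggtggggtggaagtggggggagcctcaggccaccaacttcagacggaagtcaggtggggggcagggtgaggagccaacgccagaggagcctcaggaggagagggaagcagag
A match to the AP-1 letters was present in 7.81% of 32851 RefSeq promoter windows of the same length, and to the ETS letters and the CArG box, which the 11 windows did not hold, in 8.86% and 1.63%.

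Lifr (ENSMUSG00000054263, chr15:7090614-7197489, plus strand) encodes the chain that binds LIF. Its clone 4 levels were 48.3 and 44.6 CPM at 0h, 55.7 and 51.2 at 2h, 55.8 and 55.1 at 4h, and 59.9 and 59.3 in rev. The clone 8 cultures were at 62.4 and 54.2 CPM at 0h, 68.0 and 79.6 at 2h, 64.7 and 63.4 at 4h, and 74.9 and 65.4 in rev. Within each clone every induced or rev culture lay above both 0h cultures, but the groups overlapped across clones, since clone 8 was higher throughout. The differences from 0h were small: 0.30 (SE 0.08, adjusted p = 0.00539) at 2h, 0.21 (SE 0.08, adjusted p = 0.043) at 4h and 0.33 (SE 0.08, adjusted p = 0.00317) in rev. The 2h call was lost without 2h clone 8 culture 2 (0.22, adjusted p = 0.0646). The 4h call was lost without any one of 7 libraries, namely 0h clone 4 culture 2, 0h clone 8 culture 2, 2h clone 4 culture 1, 4h clone 4 cultures 1 or 2, 4h clone 8 culture 1 or rev clone 4 culture 1, with values of 0.17 to 0.23 and adjusted p up to 0.154. It was lost as well without the low-count filter (0.21, adjusted p = 0.146), with only the 2 groups compared (0.20, 0.0609) and with the percentage covariate (0.14, 0.199). All 3 calls were lost without the clone covariate (0.30, 0.18 and 0.30, adjusted p 0.152, 0.341 and 0.14) and with library size alone.

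Il6st (ENSMUSG00000021756, chr13:112464070-112510086, plus strand) encodes gp130, the signal-transducing chain that all receptors of the IL-6 family share. For clone 4 the levels were 73.3 and 78.9 CPM at 0h, 79.4 and 80.6 at 2h, 61.5 and 66.4 at 4h, and 92.3 and 89.3 in rev. Its clone 8 levels were 60.5 and 65.6 CPM at 0h, 77.0 and 82.1 at 2h, 61.3 and 68.1 at 4h, and 73.4 and 79.8 in rev. All 4 cultures of 4h lay below all 4 of 2h and all 4 of rev, so that the level at 4h was the lowest of these 3 groups. Il6st was higher at 2h than at 0h by 0.21 (SE 0.08, adjusted p = 0.0475), lower at 4h than at 2h by a log2 fold change of -0.33 (SE 0.08, adjusted p = 0.00577), and higher in rev than at 4h by 0.39 (SE 0.08, adjusted p = 6.2e-04). Levels at 4h and 0h did not differ past the threshold (-0.12, adjusted p = 0.248). Rev exceeded 0h by 0.27 (SE 0.08, adjusted p = 0.0125). With library size alone as the scaling both rev values changed sign, to -0.04 against 4h and -0.05 against 0h, although relative to the median of all genes they were 0.36 and 0.27. The 2h call (0.22, adjusted p = 0.885) and the call between 2h and 4h (-0.22, 0.995) were lost with that scaling too. The 2h call was lost without any one of 10 libraries (0h clone 4 culture 1, both 0h and both 2h cultures of clone 8, 4h clone 4 culture 2, 4h clone 8 culture 1, both rev cultures of clone 4 and rev clone 8 culture 2; 0.16 to 0.22, highest adjusted p 0.184), and under DESeq2 (0.21, adjusted p = 0.051), without the filter (0.24, 0.0755) and with only the 2 groups compared (0.21, 0.0636). The rev against 0h call was lost without 0h clone 8 culture 1 (0.23, adjusted p = 0.0529) or rev clone 4 culture 1 (0.23, 0.0659), and without the filter (0.26, 0.0592). Without the clone covariate the calls at 2h (0.20, adjusted p = 0.182), between 2h and 4h (-0.31, 0.0959) and in rev against 0h (0.27, 0.057) were lost. Within clones the edgeR test called the 2h rise in clone 8 (0.33, adjusted p = 0.0117) and not in clone 4 (0.06, 0.796). The rise from 4h to rev was called in clone 4 (0.51, adjusted p = 3.1e-04) and not in clone 8 (0.23, 0.22). The fall from 2h to 4h and the difference of rev from 0h were called in neither clone.

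Csf3r (ENSMUSG00000028859, chr4:126024550-126044440, plus strand) encodes the receptor for granulocyte colony-stimulating factor, a relative of gp130 that also signals through JAK and STAT3 and is best known in neutrophils. Its log2 fold change was the largest in size of the 10 genes in all 5 comparisons. In clone 4 it stood at 19.3 and 15.2 CPM at 0h, 9.97 and 9.20 at 2h, 3.41 and 2.22 at 4h, and 5.44 and 6.52 in rev. For clone 8 the levels were 11.3 and 10.3 CPM at 0h, 6.17 and 5.04 at 2h, 3.23 and 2.10 at 4h, and 5.14 and 2.70 in rev. The groups stepped down without overlap from 0h to 2h to 4h, and rev lay between 4h and 0h, overlapping 4h through a single clone 8 culture. Csf3r fell by 0.88 on the log2 scale at 2h (SE 0.15, adjusted p = 4.5e-05) and by 2.36 at 4h (SE 0.19, adjusted p = 5.4e-12), a 5.14-fold lower level. Between 2h and 4h it fell by 1.48 (SE 0.20, adjusted p = 6.5e-06). Rev was higher than 4h by 0.93 (SE 0.23, adjusted p = 0.00431) and lower than 0h by a log2 fold change of -1.43 (SE 0.17, adjusted p = 2.6e-07). Counts at 4h and in rev were low, 8 to 31 and 6 to 51 per library, and the rise in rev was lost without 4h clone 4 culture 2 (0.70, adjusted p = 0.0503), without the clone covariate (0.90, 0.085) and with library size alone (0.49, 0.232). The markers of blood cells, where this receptor is best known, were at or near 0 in these libraries.

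The Csf3r start is shown because this gene changed most. Its window (chr4:126024409-126024708, plus strand) matched none of the 4 motifs searched, which says only that these letters are not in these 300 bases, and so it carries no capitals.
Csf3r: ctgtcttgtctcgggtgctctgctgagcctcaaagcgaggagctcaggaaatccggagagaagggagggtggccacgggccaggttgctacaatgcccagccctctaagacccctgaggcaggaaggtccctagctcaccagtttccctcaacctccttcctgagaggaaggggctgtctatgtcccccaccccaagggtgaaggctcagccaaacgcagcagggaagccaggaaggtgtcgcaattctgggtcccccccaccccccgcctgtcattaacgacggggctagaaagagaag
Its GC content was 60.7%, against 63.7% in the Lif window and 73.3% in the Socs3 window.

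Jak1 (ENSMUSG00000028530, chr4:101152367-101265282, minus strand) encodes the kinase bound to the receptor chains. The clone 4 cultures were at 42.9 and 40.1 CPM at 0h, 41.8 and 40.3 at 2h, 46.4 and 52.6 at 4h, and 50.7 and 47.3 in rev. In clone 8 it stood at 36.0 and 38.1 CPM at 0h, 47.1 and 46.0 at 2h, 49.0 and 44.2 at 4h, and 47.9 and 52.3 in rev. At 4h and in rev all 4 cultures lay above all 4 of 0h, and at 2h this held in clone 8 alone. Jak1 was higher than at 0h by 0.31 at 4h (SE 0.08, adjusted p = 0.00361) and by 0.34 in rev (SE 0.08, adjusted p = 0.00329), but was not called at 2h (0.19, adjusted p = 0.0909). Rev and 4h did not differ past the threshold (0.03, 95% confidence interval -0.13 to 0.20). Both calls were lost with library size alone, at 0.41 (adjusted p = 0.34) for 4h and 0.015 (0.973) for rev against 0h. Its exons share 4 bases with Raver2 on the other strand.

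Stat3 (ENSMUSG00000004040, chr11:100885098-100939540, minus strand) encodes the transcription factor at the end of the pathway. Its clone 4 levels were 52.4 and 48.9 CPM at 0h, 61.0 and 61.7 at 2h, 54.6 and 53.2 at 4h, and 65.1 and 55.6 in rev. The clone 8 cultures were at 52.6 and 56.9 CPM at 0h, 66.1 and 72.1 at 2h, 67.8 and 75.0 at 4h, and 68.8 and 81.1 in rev. All 4 cultures of 2h lay above all 4 of 0h, whereas at 4h the clone 4 cultures were close to the 0h level and the clone 8 cultures were well above it. Stat3 was higher than at 0h by 0.31 at 2h (SE 0.08, adjusted p = 0.00542), 0.24 at 4h (SE 0.08, adjusted p = 0.0228) and 0.35 in rev (SE 0.08, adjusted p = 0.00203). The 4h call was lost without 0h clone 8 culture 1 (0.20, adjusted p = 0.0799), 0h clone 8 culture 2 (0.23, 0.0511) or 4h clone 8 culture 2 (0.19, 0.0967), and without the low-count filter (0.24, 0.0745). All 3 calls were lost without the clone covariate (0.31, 0.23 and 0.34, adjusted p 0.096, 0.158 and 0.0633) and with library size alone (0.31, 0.34 and 0.020). Within clones the edgeR test called all 3 differences of Stat3 in clone 8 (0.33, 0.37 and 0.42, adjusted p 0.0172, 0.0116 and 0.00922). None was called in clone 4 (0.28, 0.095 and 0.27, adjusted p 0.151, 0.578 and 0.112). Its exons share 72 bases with Stat5a on the other strand, and as no source used here gives the strand setting of the counts, reads there could not be assigned.

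Socs2 (ENSMUSG00000020027, chr10:95385362-95417180, minus strand) encodes a SOCS protein best known for restraining growth hormone signalling. For clone 4 the levels were 23.6 and 21.8 CPM at 0h, 32.2 and 38.1 at 2h, 50.9 and 46.5 at 4h, and 35.5 and 39.7 in rev. Its clone 8 levels were 21.7 and 16.2 CPM at 0h, 30.2 and 29.3 at 2h, 36.1 and 31.6 at 4h, and 27.5 and 20.7 in rev. All induced cultures lay above all 0h cultures, and within each clone both rev cultures lay below both cultures of 4h. Socs2 rose by 0.65 at 2h (SE 0.10, adjusted p = 1.6e-05) and by 1.00 at 4h (SE 0.10, adjusted p = 1.9e-09), a 2.00-fold higher level. It then fell by 0.40 on the log2 scale in rev against 4h (SE 0.10, adjusted p = 0.00427) and stayed above 0h by 0.60 (SE 0.11, adjusted p = 1.4e-04). The share of counts in the 8 most abundant models differed between 4h and rev, and with that share as a covariate the fall was -0.26 and not called (adjusted p = 0.162), nor was it without the clone covariate (-0.40, 0.166). The calls at 2h (0.64, adjusted p = 0.151) and in rev against 0h (0.26, 0.485) were lost with library size alone. The further rise from 2h to 4h (0.35, SE 0.10, adjusted p = 0.0202) was lost without 2h clone 4 culture 1 (0.26, adjusted p = 0.178), 4h clone 4 culture 1 (0.30, 0.0876) or 4h clone 8 culture 1 (0.35, 0.0554), without the filter (0.32, 0.0631), with the percentage covariate (0.28, 0.0701), without the clone covariate (0.40, 0.277) and with library size alone (0.44, 0.928).

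Socs3 (ENSMUSG00000053113, chr11:117966079-117970047, minus strand) encodes the feedback inhibitor of gp130 and JAK1 and is a direct STAT3 target. In clone 4 it stood at 14.7 and 12.98 CPM at 0h, 23.7 and 16.6 at 2h, 17.7 and 18.3 at 4h, and 30.9 and 32.1 in rev. For clone 8 the levels were 16.1 and 16.4 CPM at 0h, 31.2 and 29.3 at 2h, 29.1 and 35.5 at 4h, and 50.5 and 39.2 in rev. Every culture of 2h, 4h and rev lay above every 0h culture, and within each clone both rev cultures lay above both cultures of 4h. Socs3 rose by 0.80 at 2h (SE 0.11, adjusted p = 2.7e-06) and by 0.72 at 4h (SE 0.12, adjusted p = 1.5e-05). Unlike Socs2, it was higher again in rev than at 4h, by 0.67 (SE 0.11, adjusted p = 1.9e-05), and ended 1.39 above 0h (SE 0.11, adjusted p = 1.2e-10), a 2.62-fold higher level. Both of these rev differences were called within each clone: 0.80 (adjusted p = 8.0e-05) and 1.20 (1.6e-06) in clone 4, and 0.54 (0.0175) and 1.52 (6.0e-09) in clone 8. The rise from 4h to rev lost its call without the clone covariate (0.65, adjusted p = 0.0724) and with library size alone (0.25, 0.428), and the 2h call with library size alone (0.75, 0.0689). The difference between the changes of Socs2 and Socs3 was not itself tested.

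The start of Socs3 is shown because its window (chr11:117969317-117969616, minus strand, which lies within the span of the gene in GENCODE) was the other one with a match. The capitals mark a STAT site, TTCTTAGAA, that begins 154 bases before the RefSeq start (chr11:117969512-117969520).
Socs3: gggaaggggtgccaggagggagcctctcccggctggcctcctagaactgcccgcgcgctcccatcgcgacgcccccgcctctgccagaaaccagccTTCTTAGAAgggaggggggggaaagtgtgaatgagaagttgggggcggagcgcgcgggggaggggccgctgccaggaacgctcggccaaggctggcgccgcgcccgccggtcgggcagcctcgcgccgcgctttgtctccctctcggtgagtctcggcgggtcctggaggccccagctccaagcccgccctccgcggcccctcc
A STAT match was present in 8.30% of the 32851 windows. A match is a description of letters, not of a bound site.

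Pim1 (ENSMUSG00000024014, chr17:29490753-29496112, plus strand) rose briefly. The clone 4 cultures were at 84.5 and 70.7 CPM at 0h, 102.7 and 98.1 at 2h, 71.3 and 75.6 at 4h, and 58.2 and 62.3 in rev. In clone 8 it stood at 75.4 and 80.3 CPM at 0h, 92.7 and 96.0 at 2h, 78.0 and 80.8 at 4h, and 70.9 and 81.1 in rev. All 4 cultures of 2h lay above all cultures of 0h, 4h and rev. Pim1 was higher at 2h than at 0h by 0.33 (SE 0.08, adjusted p = 0.00291) and lower at 4h than at 2h by a log2 fold change of -0.35 (SE 0.08, adjusted p = 0.00452), at a level near that of 0h (-0.02, 95% confidence interval -0.18 to 0.14, and 0.080 with library size alone). In rev it was not called against 4h (-0.19, adjusted p = 0.117) or 0h (-0.21, adjusted p = 0.0642). Without rev clone 8 culture 2, the rev library that stood apart, both were called, at -0.25 (adjusted p = 0.0329) and -0.28 (0.0153), as they were with the percentage covariate (-0.31, 0.0291, and -0.26, 0.0191). The 2h call was lost with library size alone (0.32, adjusted p = 0.729), and the fall from 2h to 4h also without the clone covariate (-0.35, 0.0531). Its exons share 488 bases with Gm26885 on the other strand, so reads there could not be assigned.

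Pim3 (ENSMUSG00000035828, chr15:88862186-88865726, plus strand) rose and did not return. Its clone 4 levels were 23.4 and 21.3 CPM at 0h, 29.4 and 32.4 at 2h, 29.6 and 30.4 at 4h, and 28.7 and 27.2 in rev. The clone 8 cultures were at 23.0 and 27.8 CPM at 0h, 37.8 and 32.2 at 2h, 32.7 and 29.2 at 4h, and 33.1 and 31.1 in rev. All cultures of 2h and 4h lay above all 0h cultures. Pim3 was higher than at 0h by 0.45 at 2h (SE 0.09, adjusted p = 3.1e-04), 0.36 at 4h (SE 0.09, adjusted p = 0.00237) and 0.33 in rev (SE 0.09, adjusted p = 0.0101), the last of which was lost without the low-count filter (0.32, adjusted p = 0.0608) and without the clone covariate (0.32, 0.0571). All 3 were lost with library size alone, at 0.45, 0.46 and 0.0095. Rev and 4h did not differ past the threshold (-0.03, 95% confidence interval -0.21 to 0.16).

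The clones differed in the level of 6 of the 10 genes over the 4 groups. Clone 8 was higher in Socs3 (0.55, SE 0.08, adjusted p = 1.1e-06), Lifr (0.31, SE 0.06, adjusted p = 5.6e-05), Stat3 (0.24, SE 0.06, adjusted p = 0.00119) and Pim3 (0.17, SE 0.06, adjusted p = 0.048). It was lower in Csf3r, by a log2 fold change of -0.59 (SE 0.13, adjusted p = 5.4e-04), and in Socs2, by -0.39 (SE 0.07, adjusted p = 8.7e-05). Over all genes 15.4% were called higher and 13.7% lower in clone 8. The Pim3 call was lost with RLE factors (0.16, adjusted p = 0.0551) and without any one of 12 libraries (0.14 to 0.18, adjusted p up to 0.148), the exceptions being 0h clone 4 culture 1, 0h clone 8 culture 1, 2h clone 8 culture 2 and 4h clone 8 culture 2. Il6st became called without 2h clone 8 culture 2 (-0.15, adjusted p = 0.0425), 4h clone 4 culture 1 (-0.16, 0.0364) or 4h clone 8 culture 2 (-0.15, 0.041). With library size alone as the scaling the 4 positive differences were not called, and those of Stat3 and Pim3 changed sign, to -0.02 and -0.10.

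None of the 10 responses differed between the clones past the threshold by the edgeR quasi-likelihood test. At an unadjusted p under 0.05 there was 1 gene for 2h against 0h (Jak1), 1 for 4h against 0h (Socs3) and 0 for rev against 4h. Over all genes the test called 0.0409% higher and 0.0491% lower for the 2h response, 0.123% and 0.188% for the 4h response, and 0.00819% and 0% for rev against 4h. The Socs3 difference in the 4h response, chosen after its values were seen, was 0.57 (SE 0.22, adjusted p = 0.273). Socs3 rose by 0.98 in clone 8 (SE 0.15, adjusted p = 8.2e-06) and stood 0.40 higher in clone 4 (SE 0.16, adjusted p = 0.0769). Csf3r fell in both clones, with log2 fold changes of -2.57 in clone 4 (SE 0.24, adjusted p = 2.2e-10) and -1.95 in clone 8 (SE 0.29, adjusted p = 6.0e-06). Socs2 rose in both, by 1.11 (SE 0.13, adjusted p = 7.2e-08) and 0.87 (SE 0.15, adjusted p = 3.4e-05). Some other calls of the fit to both clones were called in 1 clone alone or in neither, at 2 cultures per clone and group.

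**Figure D3:**
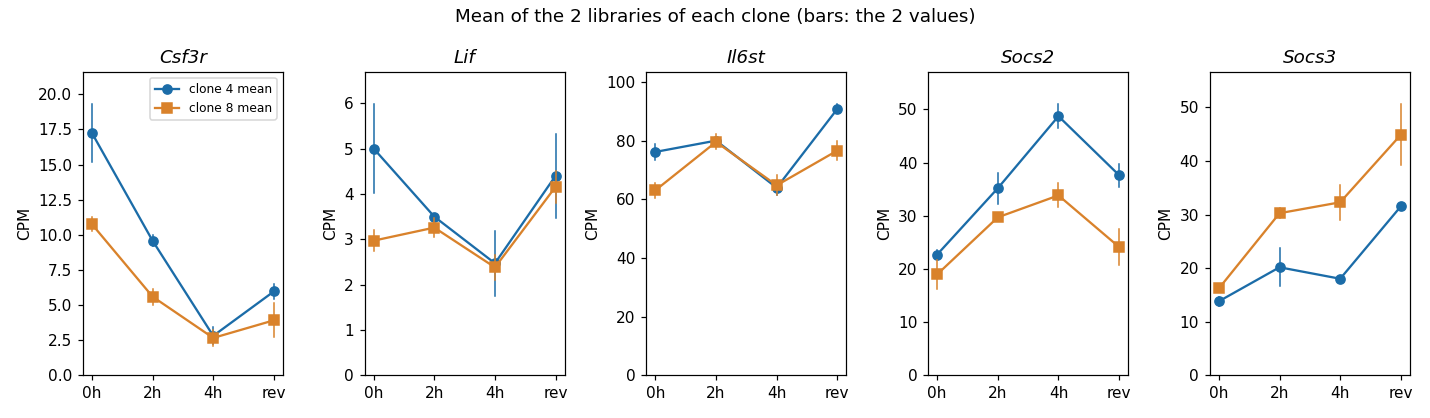
Mean CPM of the 2 libraries of clone 4 (circles) and of clone 8 (squares) for Csf3r, Lif, Il6st, Socs2 and Socs3 in the 4 groups, with a vertical line joining the 2 library values. In both clones the mean of Csf3r is lowest at 4h, that of Socs2 is highest at 4h and that of Socs3 is highest in rev.

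The rest of the pathway was taken as 5 lists of 50 other genes, of which 34 passed the filter. At 4h against 0h 7 of the 34 were higher and 9 lower, beside 17.2% and 16.8% of all genes, and for rev against 4h 6 were higher and 4 lower, beside 7.93% and 8.43%. At 2h against 0h the counts were 6 and 4 (11.4% and 9.68% of all genes), at 4h against 2h 2 and 3 (3.8% and 3.52%), and for rev against 0h 7 and 5 (12.4% and 9.86%). Their median log2 fold change was 0.04 for 4h against 0h and 0.05 for rev against 4h, beside -0.02 and 0.01 over all genes.

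Of 10 other ligands of the family only oncostatin M, Osm, passed the filter, and of 6 other receptors only Il6ra did. Osm, a cytokine that signals through gp130, had a mean of 4.40 ± 3.06 CPM at 0h, 1.95 ± 1.39 CPM at 4h and 4.75 ± 2.24 CPM in rev (SD, n = 4). It was lower at 4h (log2 fold change -1.13, SE 0.25, adjusted p = 6.8e-04) and higher in rev against 4h (1.20, SE 0.25, adjusted p = 7.0e-04), and the groups overlapped in both comparisons. These are the directions that Lif took in the same comparisons. Osm counts were low, at 2 to 31 per library at 4h. Over the 4 groups Osm stood at 1.69 CPM in clone 8 and 5.50 CPM in clone 4 (log2 fold change -1.79, SE 0.18, adjusted p = 1.2e-09 by the edgeR test). With the share of the 8 most abundant models as a covariate both calls of Osm were lost (-0.74, adjusted p = 0.0591, and 0.83, adjusted p = 0.066), as they were with library size alone (-0.90 and 0.84) and without the clone covariate (-0.89 and 1.16). Il6ra, the receptor chain that binds IL-6 and pairs with gp130, had a mean of 7.93 ± 1.21 CPM at 0h, 20.9 ± 3.64 CPM at 2h, 32.1 ± 4.77 CPM at 4h and 19.5 ± 2.99 CPM in rev. Its log2 fold change was 2.02 at 4h against 0h (SE 0.13, adjusted p = 7.3e-15) and -0.77 for rev against 4h (SE 0.11, adjusted p = 6.2e-06), and the groups overlapped in neither comparison. Il6ra and Csf3r, receptor chains that both feed into STAT3, thus moved in opposite directions at 4h.

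Among the other JAK and STAT genes, Stat2 and Stat6 fell at 4h against 0h. Stat2, which mediates type I interferon signalling, fell from 29.6 ± 2.36 to 11.04 ± 2.08 CPM (log2 fold change -1.43, SE 0.11, adjusted p = 9.2e-13) and was higher again in rev at 15.6 ± 1.83 CPM (0.50, SE 0.12, adjusted p = 0.00344). Stat6, the factor of IL-4 signalling, fell from 14.98 ± 2.25 to 8.68 ± 0.937 CPM (-0.78, SE 0.14, adjusted p = 6.3e-05). None of Jak2, Jak3 and Tyk2 was called at 4h, and Stat3 was thus higher while Stat2 and Stat6 were lower. The Stat6 fall (-0.67, adjusted p = 0.0908) and the Stat2 rise in rev (0.082, 0.822) were not called with library size alone.

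Of 16 other inhibitors and adaptors 15 were tested, with 3 higher and 2 lower at 4h against 0h, shares near the 17.2% and 16.8% over all genes. Socs5, a SOCS gene reported to act on EGF receptor and IL-4 signalling, rose from 4.13 ± 0.854 to 10.4 ± 2.04 CPM (1.36, SE 0.18, adjusted p = 5.1e-07) and fell to 3.02 ± 0.618 CPM in rev (-1.74, SE 0.20, adjusted p = 7.6e-08). Ptpn1, a tyrosine phosphatase that acts on JAK kinases, was higher at 4h by 0.45 (SE 0.11, adjusted p = 0.00146). Pias3, which encodes an inhibitor of STAT3, was lower at 4h by a log2 fold change of -0.42 (SE 0.14, adjusted p = 0.024) and higher in rev against 4h by 0.90 (SE 0.14, adjusted p = 1.7e-05). The Pias3 fall was lost without 0h clone 8 culture 2 (-0.32, adjusted p = 0.132), 4h clone 4 culture 1 (-0.32, 0.115) or 4h clone 8 culture 2 (-0.36, 0.0742). The other 2 called at 4h were Socs1 (0.62, adjusted p = 0.0475) and Pias1 (-0.28, adjusted p = 0.0318), and both were lost without single libraries, in 10 and 5 of the 16 cases, and under DESeq2, without the filter and without the clone covariate. With library size alone the 4h calls of Ptpn1 (0.57), Pias3 (-0.33), Socs1 (0.75) and Pias1 (-0.17) and the rev call of Pias3 (0.49) were lost.

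Of 9 other reported LIF-STAT3 targets in these cells, all tested, 3 rose and 3 fell at 4h, where 17.2% of all genes were called higher and 16.8% lower. Junb, an AP-1 subunit, rose from 6.29 ± 0.817 to 25.7 ± 1.70 CPM (2.01, SE 0.12, adjusted p = 1.9e-15) and fell to 11.9 ± 1.06 CPM in rev (-1.10, SE 0.11, adjusted p = 2.8e-09). Klf5, a pluripotency factor, rose by 0.76 (SE 0.12, adjusted p = 4.4e-06) and fell by 0.56 in rev against 4h (SE 0.12, adjusted p = 8.1e-04). Pramel7, a naive state gene, fell by 1.13 (SE 0.18, adjusted p = 8.1e-06). Klf4 and Tfcp2l1, naive pluripotency factors that STAT3 is known to induce, fell by 0.35 (SE 0.10, adjusted p = 0.0073) and 0.31 (SE 0.08, adjusted p = 0.00287) at 4h. In rev against 4h Klf4 was higher by 0.51 (SE 0.10, adjusted p = 4.7e-04) and Tfcp2l1 by 0.33 (SE 0.08, adjusted p = 0.00362), although with library size alone as the scaling the Tfcp2l1 value was -0.10 and the Klf4 value 0.11 (adjusted p = 0.741). All 4 of these calls were lost with library size alone and without the clone covariate, where Klf4 stood at -0.31 (adjusted p = 0.453) at 4h and at 0.44 (0.389) in rev against 4h. Sp5 was the third gene that rose at 4h (0.35, adjusted p = 0.0437) and Bcl3 the third that was higher in rev (0.36, adjusted p = 0.037), and each lost its call without single libraries, 7 and 6 of the 16 respectively. Both were also lost under DESeq2, without the clone covariate and with library size alone, and Bcl3 with the percentage covariate (0.18, adjusted p = 0.454). The reported targets among the 10 genes behaved as variously: Socs3 was higher in both comparisons, Pim1 was called in neither and Pim3 was higher at 4h alone.

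**Figure D4:**
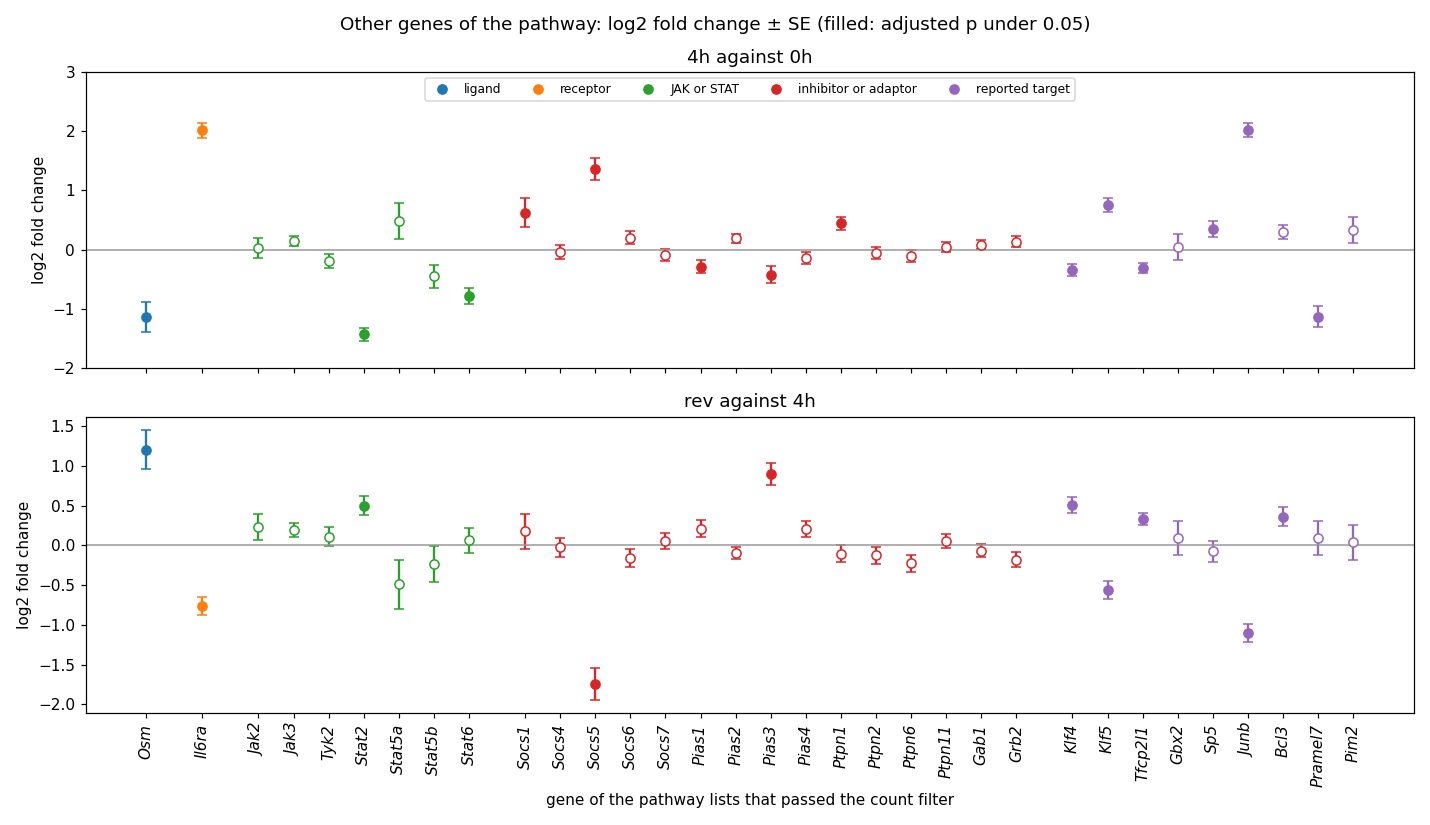
Log2 fold change ± SE (y axis) of 33 tested genes of the 5 pathway lists (x axis, coloured by list) in 4h against 0h (upper panel) and rev against 4h (lower panel), filled where the adjusted p is under 0.05. Il6ra, Junb and Socs5 are high in the upper panel and low in the lower one, and Osm shows the reverse.

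The genes whose pattern over the 16 libraries was most like that of the 3 members with the largest called change at 4h were sought among 8645 genes with a mean of at least 5 CPM, by Pearson's r of log2 CPM after each clone's mean was subtracted. These correlations are descriptions, since the 16 libraries share groups, depth and scaling. Nearest to Csf3r were Cul4a (r = 0.94), A4galt (0.94) and Trpm1 (0.94). Cul4a, ranked first, fell by 0.35 on the log2 scale at 4h against 0h (adjusted p = 0.00133) and was not called in rev against 4h (0.17, adjusted p = 0.203). A4galt fell by 1.87 and Trpm1 by 1.01 on the log2 scale at 4h against 0h, beside 2.36 for Csf3r. Nearest to Socs2 were Rcor1 (0.96), Etv4 (0.94) and Rraga (0.94), and nearest to Socs3 were Mfsd10 (0.92), Tfe3 (0.92) and Tead1 (0.92). Etv4, 1 of the 6 ERK feedback genes of the induction check, was higher by 2.62 at 4h than at 0h and lower by a log2 fold change of -1.19 in rev against 4h, where Socs2 gave 1.00 and -0.40. Among the 10 genes themselves Socs3 correlated with Stat3 (r = 0.76), Lifr (0.75) and Jak1 (0.73), and Socs2 with Pim3 (0.69), while the lowest values were those of Csf3r with Jak1 (-0.77) and with Socs2 (-0.76).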

How the data were processed

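Libraries of rRNA-depleted RNA were sequenced for 16 cultures, and the authors deposited raw read counts per Ensembl gene identifier, 1 column per culture and none pooled. The submitters' processing notes name the genome build mm10, bcl2fastq 2.19.1 and STAR 2.5.3a; the counting tool, the annotation and the strand setting are not given in the sources used here. Groups, clones and culture numbers came from the sample titles, and doses and times from the labels. Of 52636 identifiers, 52489 matched GENCODE M21, which gave symbols, positions and exon lengths, and 147 did not. The members, the pathway lists, the tests and the alternatives were chosen with earlier results of these data known.

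The counts went through edgeR 4.0.16 (R 4.3.3): filterByExpr over the 4 groups, TMM factors (0.463 to 1.47), and a quasi-likelihood fit of group and clone to all 16 libraries. Contrasts were two-sided, with Benjamini-Hochberg adjustment over 12215 genes at 0.05. A fit with 8 cells of group and clone gave within-clone values and clone differences. CPM uses TMM-scaled library sizes, log2 CPM a prior count of 2, and a level per kb the summed exon length. SE is the log2 fold change over the square root of F. At these depths 3 counts were 0.213 to 1.35 CPM. The biological coefficient of variation held by the fit, which leaves out the gene-wise quasi-likelihood spread, was 0.069. Named were all 10 members, list genes called in 4h against 0h or rev against 4h (the largest changes, up to 4 per list and comparison), and the 3 genes most like each of 3 members. Gbx2, Pias1, Sp5 and Tfcp2l1 lie outside that rule and were named after their values were seen, and 1 list gene is not reported here. Alternatives were RLE factors, library size alone, no filter, a mean of at least 1 CPM, no clone covariate, a replicate block, only the 2 groups compared, DESeq2 1.42.0, the 8 most abundant models removed or their share as a covariate, and each library left out. The code was tested on simulated counts.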

Additional observations from a re-analysis of the deposited data

Results flagged for a closer look

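Lif in the second clone 8 culture of 2h stood at 3.05 CPM, apart from the other 3 cultures of that group at 3.46 to 3.50 CPM. It was the 1 outlying library among 40 groups of 4 that were checked. Chance gives about 1 in 20 such groups, so 1 in 40 is no more than chance gives. The value rests on 43 counts, and that of the second clone 4 culture of the group on 8.

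2 reported LIF-STAT3 targets, chosen after their values were seen, responded differently in the 2 clones by the edgeR test of the difference itself. For Gbx2, a homeobox gene, the response of clone 8 exceeded that of clone 4 by 1.74 at 2h against 0h (adjusted p = 0.0241) and by 1.84 at 4h against 0h (adjusted p = 0.00765). Gbx2 stood at 13.9 and 14.0 CPM in clone 4 and at 2.09 and 2.78 CPM in clone 8 at 0h, and at 9.02 and 10.5 CPM and 6.08 and 6.58 CPM at 4h. For Klf5 the differences were 0.81 (adjusted p = 0.0241) and 0.83 (adjusted p = 0.00999), with 144.2 and 106.2 CPM in clone 4 and 95.2 and 94.6 CPM in clone 8 at 0h, and 146.3 and 170.3 CPM and 205.1 and 226.5 CPM at 4h. The 4h difference lost its call for Gbx2 without 4h clone 8 culture 2 (1.79, adjusted p = 0.0806), and for Klf5 without 0h clone 4 culture 1 (0.61, 0.191), 0h clone 8 culture 2 (0.82, 0.0539), 4h clone 4 culture 1 (0.73, 0.115) or 4h clone 8 culture 2 (0.76, 0.117). Each 2h difference was lost without any one of 5 libraries. With library size alone as the scaling none of the 4 was called: Klf5 stood at 0.73 at 2h and 0.21 at 4h (adjusted p = 0.691), and Gbx2 at 1.61 at 2h and 1.23 at 4h (adjusted p = 0.186).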

How the results depend on the processing

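Of 50 member results (10 genes in 5 comparisons), all 50 kept direction and call under RLE factors, a mean of at least 1 CPM and removal of the 8 most abundant models, 48 under DESeq2, 47 with only the 2 groups compared, 43 without the filter, 42 with the percentage of counts in the 8 models as a covariate, 33 without the clone covariate and 16 with library size alone. Culture numbers did not pair the samples (mean r of 12 pairs 0.00985, range -0.319 to 0.188). The replicate block changed 1 call, Lifr for 4h against 0h (0.21, adjusted p = 0.053). The cause of the changes below was not tested.

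With library size alone the calls over all genes, higher and lower, were 204 and 134 for 2h against 0h, 554 and 327 for 4h against 0h, 88 and 12 for 4h against 2h, 57 and 1671 for rev against 4h, 105 and 905 for rev against 0h, and 288 and 1837 between clones. The clone differences gave 1 and 2 at 2h, 4 and 30 at 4h, and 0 higher for rev against 4h. Member calls were then 0 and 1, 2 and 1, 0 and 1, 0 and 1, 1 and 1, and 0 and 2 in the first 6 comparisons. Signs reversed for rev against 4h in Il6st (-0.042), Jak1 (-0.39), Lifr (-0.30), Stat3 (-0.32), Bcl3 (-0.073) and Tfcp2l1 (-0.10), and for rev against 0h in Il6st (-0.046) and Lif (-0.10). They also reversed for 4h against 2h in Lifr (0.019), Pim3 (0.0095), Socs3 (0.042) and Stat3 (0.030), for 4h against 0h in Pim1 (0.080), for the clones in Pim1 (-0.17), Pim3 (-0.10) and Stat3 (-0.023), and for the Socs3 clone difference at 4h (-0.045).

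Without the clone covariate the counts over all genes were 747 and 462 for 2h against 0h, 129 and 90 for 4h against 2h, 418 and 463 for rev against 4h, 876 and 576 for rev against 0h, and 1323 lower for 4h against 0h. Members were then 4 higher for 2h against 0h, 1 lower for 4h against 0h, 0 higher and 1 lower for 4h against 2h, 1 higher and 0 lower for rev against 4h, and 3 higher for rev against 0h. With that percentage as a covariate, rev against 4h gave 577 and 652 genes, 2 members were lower for rev against 0h, and Pim1 for 4h against 0h was 0.052. Members lower for 4h against 0h were 1 under DESeq2, without the filter, with only the 2 groups and with that covariate. Members higher for 4h against 2h were 0 without the filter and with that covariate.

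With each library left out, genes called higher and lower ranged over 1070 to 1454 and 743 to 1286 for 2h against 0h, 1807 to 2130 and 1646 to 2149 for 4h against 0h, 303 to 510 and 260 to 457 for 4h against 2h, 644 to 1026 and 737 to 1119 for rev against 4h, 1231 to 1591 and 849 to 1268 for rev against 0h, and 1645 to 1985 and 1422 to 1769 between clones. Members ranged over 5 to 7 and 1, 4 to 6 and 1 to 2, 0 to 1 and 3, 2 to 4 and 1 to 2, 6 to 7 and 1 to 2, and 3 to 4 and 2 to 3. Clone differences ranged over 0 to 19 and 0 to 18 at 2h, 2 to 56 and 3 to 46 at 4h, and 0 to 3 and 0 to 3 for rev against 4h, with 0 members throughout. Signs of uncalled values turned for Jak1 between clones (-0.042 to 0.0077) and for rev against 4h (-0.0022 to 0.080), for Lif for 2h against 0h (-0.23 to 0.0023) and for Pim1 for 4h against 0h (-0.053 to 0.034). At 8 to 50 counts of Lif and 6 to 102 of Csf3r per library, depth limits those 2 genes most.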
